A study of Mus musculus with 93 samples.

Results

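The genes described here are 10 transcripts of pericentral hepatocytes, Glul, Cyp2e1, Cyp1a2, Oat, Axin2, Lgr5, Rnf43, Tbx3, Slc1a2 and Lhpp, taken by symbol from a count table of 53465 genes. Every one of the 10 was found once in the table and passed the filter on low counts, which left 19110 genes for testing. Liver mRNA was sequenced from 93 male mice of 7 inbred strains, the wild-derived PWK/PhJ, CAST/EiJ and WSB/EiJ and the domesticated A/J, 129S1/SvImJ, DBA/2J and C57BL/6J. All mice lived at thermoneutrality (TN, 30 °C) from 6 weeks of age and received a control diet with 10% of energy from fat (CD-TN) or a western-style diet with 40% (WD-TN) from 7 weeks of age until they were killed at 24 weeks. Each strain on each diet formed 1 group, with 5 mice in A/J on CD-TN and 6 to 8 in each of the other 13 groups, and mice of both diets in every strain came from 2 or 3 cohorts. The questions were how far each gene differed between strains, whether WD-TN changed it within a strain, and whether that change differed between strains.

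Blood enters the liver lobule around the portal tracts and leaves at the central vein, and hepatocytes along this path do different work. Endothelial cells of the central vein secrete Wnt ligands and the R-spondin Rspo3, which hold β-catenin active in the neighboring hepatocytes. Those pericentral cells make glutamine, oxidize drugs and alcohol with cytochrome P450 enzymes and express feedback genes of the Wnt pathway, whereas periportal cells carry out the urea cycle and gluconeogenesis.

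Among the 10 genes, 6 encode enzymes or a transporter. Glul (glutamine synthetase) joins ammonia to glutamate, Oat (ornithine aminotransferase) makes glutamate semialdehyde from ornithine, and Slc1a2 carries glutamate into the cell. Cyp2e1 oxidizes ethanol and acetaminophen, Cyp1a2 oxidizes caffeine and aromatic amines and is a target of the aryl hydrocarbon receptor, and Lhpp is a histidine phosphatase. On the GRCm38 assembly they lie at chr1:153899944-153909723 (Glul, plus strand), chr7:140763739-140774987 (Cyp2e1, plus), chr9:57676937-57683703 (Cyp1a2, minus), chr7:132557478-132576398 (Oat, minus), chr2:102658659-102790784 (Slc1a2, plus) and chr7:132610638-132706420 (Lhpp, plus). The other 4 belong to the Wnt pathway. Lgr5 is a receptor for R-spondins, Rnf43 is a ubiquitin ligase that removes Frizzled receptors from the cell surface, Axin2 is a feedback inhibitor that helps degrade β-catenin, and Tbx3 is a transcription factor induced by β-catenin. They lie at chr10:115450311-115587780 (Lgr5, minus strand), chr11:87662722-87735539 (Rnf43, plus), chr11:108920349-108950783 (Axin2, plus) and chr5:119670669-119684724 (Tbx3, plus), and all spans are whole genes with exons, introns and UTRs.

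The promoters show how unlike the upstream sequences of these genes are, and they are given for the 2 genes with most diet calls, Oat and Axin2, and for both cytochrome P450 genes. RefSeq's promoter table (GRCm38.p6) matched 7 of the 10 genes, and not Lgr5, Tbx3 or Lhpp. The stretches run 5′ to 3′ on the strand of the gene, start 250 bases before the RefSeq start and stop at that start or before the first GENCODE exon of the gene. They lie at chr11:108920099-108920348 on the plus strand (Axin2), chr7:132576399-132576648 on the minus strand (Oat), chr7:140763569-140763738 on the plus strand (Cyp2e1) and chr9:57683704-57683905 on the minus strand (Cyp1a2). Capitals mark CTTTGA or CTTTGT, the core letters bound by TCF/LEF factors, and GCGTG, the core of the aryl hydrocarbon receptor element, on either strand.
Axin2: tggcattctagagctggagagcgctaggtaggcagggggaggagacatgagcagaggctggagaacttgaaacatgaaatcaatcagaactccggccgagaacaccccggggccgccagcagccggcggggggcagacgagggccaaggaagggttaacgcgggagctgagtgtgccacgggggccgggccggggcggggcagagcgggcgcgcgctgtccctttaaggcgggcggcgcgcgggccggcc
Oat: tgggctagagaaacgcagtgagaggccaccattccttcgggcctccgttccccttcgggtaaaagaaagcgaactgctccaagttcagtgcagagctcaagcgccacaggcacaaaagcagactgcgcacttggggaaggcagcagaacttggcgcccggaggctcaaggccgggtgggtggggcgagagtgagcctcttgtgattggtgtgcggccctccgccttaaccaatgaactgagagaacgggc
Cyp2e1: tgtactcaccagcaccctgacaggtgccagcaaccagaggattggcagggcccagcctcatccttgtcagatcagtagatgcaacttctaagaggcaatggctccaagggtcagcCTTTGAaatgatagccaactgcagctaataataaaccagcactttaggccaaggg
Cyp1a2: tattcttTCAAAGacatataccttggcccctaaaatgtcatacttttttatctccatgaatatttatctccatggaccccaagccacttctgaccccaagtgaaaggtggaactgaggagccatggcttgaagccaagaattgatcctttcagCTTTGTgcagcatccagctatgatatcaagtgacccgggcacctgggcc
In the 250 bases before the start, CTTTGA or CTTTGT was present in 3 of the 7 matched genes (Cyp2e1, Cyp1a2 and Slc1a2), and in 27.6% of 32851 promoters of the table. Cyp1a2 held 2 such matches and Slc1a2 held 2, while the Axin2 and Oat stretches held none. GCGTG was present in 1 of the 7 genes, Rnf43, and in 28.2% of all promoters. The Rnf43 window with this match began in an exon of the GENCODE gene, and the Slc1a2 window lay inside its GENCODE gene. Neither window is thus upstream of the whole gene. These matches describe the letters of the window and were not tested for binding.

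The tissue carried the RNA of liver. Alb, which encodes albumin, had group means from 55360 counts per 1000000 reads on genes, scaled by TMM factors (CPM), in CAST/EiJ on WD-TN to 172309 CPM in A/J on CD-TN. Each library held 40020424 to 49894856 reads on genes, and the scarcest of the 10 genes, Lgr5, had 17 to 615 reads per mouse, so that counting error adds most to its spread. Among C57BL/6J mice, 2 stood apart. Replicate 2 on CD-TN had 205 CPM of Glul against 743 to 1197 in the other 7 mice, and 369 CPM of Spp1 and 22.4 CPM of Epcam, markers of bile duct cells, against group medians of 42.0 and 2.04. Replicate 3 on WD-TN had 282 CPM of Glul against 838 to 1433, and 358 CPM of Spp1 and 18.1 CPM of Epcam against medians of 98.8 and 2.59. Summed over 5 bile duct markers, both mice held 435 and 406 CPM, of which Spp1 alone gave 369 and 358, where the other C57BL/6J mice held 43.3 to 215. Both mice also had the highest summed stellate and fibroblast markers of their groups, 887 and 1057 CPM. Their summed sinusoidal endothelial markers (183 and 176 CPM) and summed pericentral genes other than the 10 (2829 and 2263 CPM) were the lowest. Their summed periportal genes lay within the range of the other mice of their groups. Values without both mice are therefore given beside many results that involve C57BL/6J. They were not computed for the genes closest to each member. Both mice were picked after the data were seen, in part by their low Glul, so a result gained without them is no independent support. In RNA from whole liver, fewer pericentral cells and less RNA per pericentral cell cannot be told apart.

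The 10 genes differed widely in level per length. Divided by the length of its exons, Cyp2e1 was the most abundant, with a mean over the mice of 3752 CPM per kilobase. Glul followed with 219.7, Cyp1a2 with 213.4 and Oat with 179.2 CPM per kilobase. Lhpp had 13.5, Tbx3 7.85, Slc1a2 6.75 and Rnf43 4.12 CPM per kilobase. Axin2 with 1.46 and Lgr5 with 0.503 CPM per kilobase were the scarcest.

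Levels of most of these genes differed between strains, as did those of most genes in the table. With limma's F test, all 10 genes differed between the 7 strains on CD-TN, where 93.7% of all genes tested did, and 8 of 10 on WD-TN, where 93.9% of all genes did. The exceptions on WD-TN were Rnf43 (adjusted p = 0.086) and Tbx3 (adjusted p = 0.29), also without both C57BL/6J mice (0.21 and 0.50). Between pairs of strains, 23.4% to 65.9% of all genes differed on CD-TN and 26.9% to 67.3% on WD-TN. Reads of every strain were mapped to the C57BL/6J genome, so a strain's level and the mapping of its reads cannot be told apart. Nor can strain be fully told apart from cohort, since cohorts 6 and 7 held only WSB/EiJ mice and no cohort held all strains. Within a strain both diets share the reference genome. In PWK/PhJ, though, unmapped reads were 2.22% to 4.24% on CD-TN and 5.48% to 8.73% on WD-TN. In the other strains these ranges overlapped. The part of unmapped reads in the diet effects was not tested.

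Oat had one of the widest ranges between groups, with the highest group mean 4.96 times the lowest. On CD-TN, CAST/EiJ mice had 419, 930 and 1115 CPM of Oat as lowest, median and highest values, C57BL/6J mice 262, 417 and 781 CPM, and WSB/EiJ mice 130, 149.6 and 238 CPM. All CAST/EiJ mice were thus above all WSB/EiJ mice. In the order of means, CAST/EiJ exceeded C57BL/6J (836 against 448 CPM, adjusted p = 1.5e-05), C57BL/6J exceeded 129S1/SvImJ (288 CPM, adjusted p = 0.011), and DBA/2J exceeded WSB/EiJ (248 against 169 CPM, adjusted p = 0.026). The steps between 129S1/SvImJ, A/J, PWK/PhJ and DBA/2J were within the spread between mice. Without both mice that stood apart, the steps above and below C57BL/6J on CD-TN had adjusted p of 9.94e-06 and 0.0050. On WD-TN 129S1/SvImJ exceeded DBA/2J (581 against 331 CPM, adjusted p = 0.0011), and the order ended with PWK/PhJ at 178 CPM, below WSB/EiJ at 272 CPM (adjusted p = 0.0071).

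Lhpp, Lgr5 and Cyp1a2 ranged nearly as widely, 4.77-fold, 4.76-fold and 4.07-fold between the highest and lowest group means. Lhpp was highest in C57BL/6J (mean 45.8 CPM on CD-TN and 54.6 CPM on WD-TN). On CD-TN the only step between neighboring strains that passed the test was PWK/PhJ above WSB/EiJ (24.2 against 16.3 CPM, adjusted p = 0.012). On WD-TN 129S1/SvImJ exceeded CAST/EiJ (51.4 against 32.2 CPM, adjusted p = 0.00098) and WSB/EiJ exceeded PWK/PhJ (17.9 against 11.5 CPM, adjusted p = 0.0073). Cyp1a2 was highest in 129S1/SvImJ on both diets and lowest in C57BL/6J. On CD-TN no neighbors in its order differed by the test, whereas on WD-TN 129S1/SvImJ, with 817 CPM, exceeded DBA/2J with 519 CPM (adjusted p = 0.015), WSB/EiJ exceeded A/J (473 against 314 CPM, adjusted p = 0.034) and PWK/PhJ exceeded C57BL/6J (275 against 201 CPM, adjusted p = 0.026). That last step did not pass without both C57BL/6J mice (adjusted p = 0.15).

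Cyp2e1 was lowest in C57BL/6J on CD-TN, where the mice had 1563, 4620 and 7284 CPM as lowest, median and highest values, and highest in WSB/EiJ, with 10238, 10912 and 13656 CPM. The ranges of these strains did not overlap. Only the last step of the CD-TN order, DBA/2J above C57BL/6J (5967 against 4534.5 CPM), passed the test (adjusted p = 0.021, and 0.042 without both C57BL/6J mice), and on WD-TN no neighbors differed by the test. Glul formed a continuous series from 444 CPM in WSB/EiJ to 914 CPM in 129S1/SvImJ on CD-TN and from 502 CPM in WSB/EiJ to 1039 CPM in C57BL/6J on WD-TN, in which no neighboring strains differed by the test. Slc1a2 likewise fell in small steps from 123.4 CPM in C57BL/6J to 40.1 CPM in 129S1/SvImJ on CD-TN, with adjusted p for neighbors from 0.079 to 0.69. Strains farther apart in these orders did differ. Of the 21 pairs of strains on CD-TN, 14 passed for Slc1a2, 11 for Cyp2e1 and 8 for Glul, where 23.4% to 65.9% of all genes passed per pair. With both C57BL/6J mice left out of the common fit, 24 rather than 16 of the 120 steps between neighbors of the 10 genes on either diet passed. Among the steps gained were Glul in CAST/EiJ above WSB/EiJ on CD-TN (594 against 444 CPM, adjusted p = 0.0019), Glul in C57BL/6J above 129S1/SvImJ on WD-TN (1147.5 against 909 CPM, adjusted p = 0.032) and Slc1a2 in DBA/2J above PWK/PhJ on CD-TN (60.5 against 44.4 CPM, adjusted p = 0.024). Low Glul was among the reasons for picking both mice, so the steps gained for Glul follow in part from that choice.

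Of the Wnt pathway genes, Lgr5 and Rnf43 separated the strains on CD-TN. Lgr5 was lowest in WSB/EiJ, with 0.675, 1.93 and 2.31 CPM, and highest in 129S1/SvImJ, with 5.91, 7.98 and 11.2 CPM, without overlap between these strains. DBA/2J exceeded CAST/EiJ (4.48 against 2.98 CPM, adjusted p = 0.0041), and on WD-TN PWK/PhJ exceeded WSB/EiJ (4.71 against 2.41 CPM, adjusted p = 0.018). For Rnf43, A/J (38.4 CPM) exceeded PWK/PhJ (24.3 CPM, adjusted p = 0.0086) and DBA/2J (22.9 CPM) exceeded CAST/EiJ (16.5 CPM, adjusted p = 0.0062). Axin2 and Tbx3 were the most even, with 1.91-fold and 1.88-fold between the highest and lowest group means, and no neighboring strains differed by the test on either diet, with or without both C57BL/6J mice.

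WD-TN changed the pericentral genes in both directions, and no gene was called in every strain. Within the 7 strains, 17 of 70 comparisons of a gene between diets passed the test (9 upregulated and 8 downregulated), which is 24.3%, where 19.9% of all comparisons of all genes passed. C57BL/6J had 5 of 10 genes called (26.2% of all genes), DBA/2J 1 (18.0%), A/J 1 (9.03%), 129S1/SvImJ 2 (28.0%), WSB/EiJ 1 (8.94%), CAST/EiJ 3 (19.5%) and PWK/PhJ 4 (29.6%). The pooled share of members called was thus near that of all genes. The 3 calls in CAST/EiJ were all upregulated and the 4 in PWK/PhJ all downregulated, where 9.77% and 14.5% of all genes were called in those directions. The median log2 fold change of the 10 genes ran from −0.41 in PWK/PhJ to 0.27 in CAST/EiJ, and that of all genes lay between −0.01 and 0.02 in the 7 strains. Groups did not overlap in 3 of the 70 comparisons, where 7.54% of all comparisons of all genes did not. With each strain fitted alone, the calls of Oat, Cyp2e1, Cyp1a2 and Tbx3 in C57BL/6J and of Lgr5 and Rnf43 in CAST/EiJ were lost, while Cyp2e1 (−0.40, adjusted p = 0.030) and, in the upward direction, Slc1a2 (0.35, adjusted p = 0.025) were added in PWK/PhJ. Added in 129S1/SvImJ were Cyp1a2 (0.43, adjusted p = 0.0012), Cyp2e1 (0.24, 0.045), Lhpp (0.39, 0.016) and Rnf43 (−0.48, 0.024). Tbx3 was added in A/J (−0.78, adjusted p = 0.043).

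**Figure D1:**
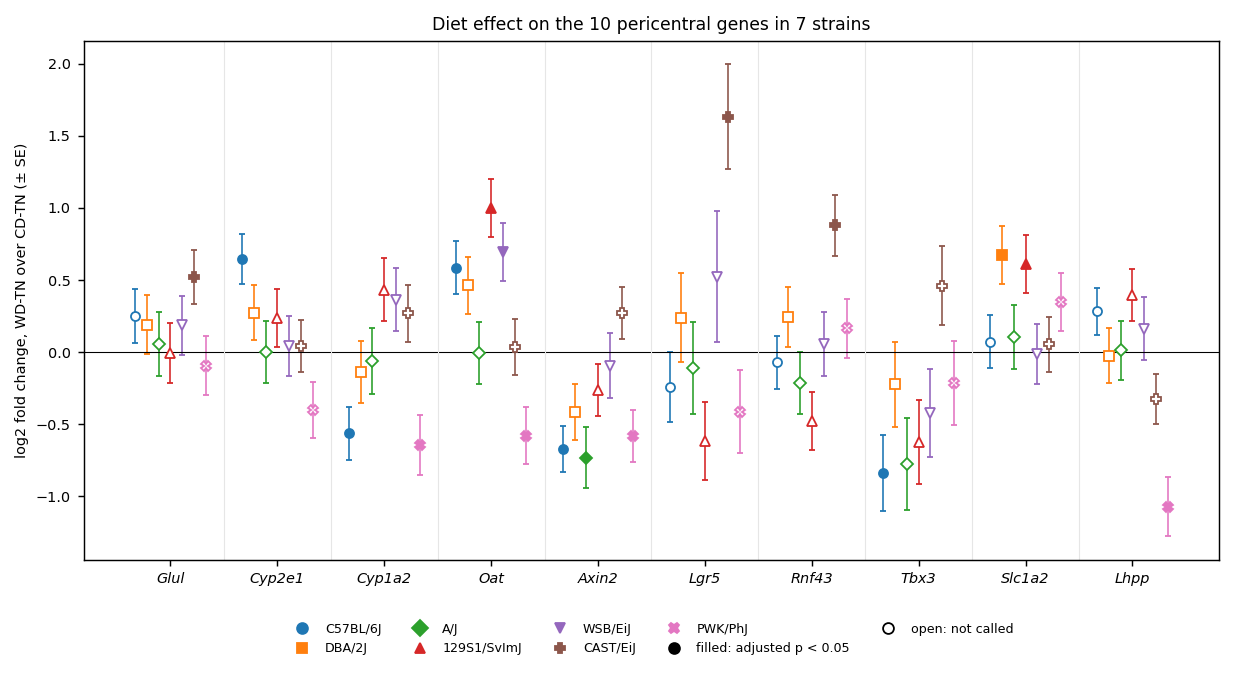
Log2 fold change of WD-TN over CD-TN (vertical axis, bars ± SE) for each of the 10 genes (horizontal axis) in the 7 strains (marker shapes and colors); filled markers had an adjusted p below 0.05 in limma-voom. The 17 filled markers lie on both sides of 0, from −1.07 for Lhpp in PWK/PhJ to 1.63 for Lgr5 in CAST/EiJ.

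Oat was the gene called in most strains, upregulated in 3 and downregulated in 1. In 129S1/SvImJ the mice had 254, 282 and 356 CPM on CD-TN and 487, 544 and 793 CPM on WD-TN (lowest, median, highest), and every WD-TN mouse was above every CD-TN mouse. The log2 fold change was 1.00 ± 0.20 (SE, n = 7 and 6, limma-voom adjusted p = 8.03e-05), and it was 0.91 and 1.12 within the 2 cohorts. In WSB/EiJ the values were 130, 149.6 and 238 CPM on CD-TN and 174, 293 and 336 CPM on WD-TN, with 4 of 6 WD-TN mice above all CD-TN mice (log2 fold change 0.69 ± 0.20, adjusted p = 0.016). In C57BL/6J Oat rose from 262, 417 and 781 CPM to 255, 666 and 959 CPM, with overlapping ranges (log2 fold change 0.59 ± 0.19, adjusted p = 0.012). Without both C57BL/6J mice that stood apart, the log2 fold change was 0.74 (adjusted p = 0.00096).

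PWK/PhJ moved the other way. Its mice had 213, 259 and 337 CPM of Oat on CD-TN and 151, 176 and 214 CPM on WD-TN, and 6 of 7 WD-TN mice were below all CD-TN mice (log2 fold change −0.58 ± 0.20, adjusted p = 0.018). Set against the other 6 strains averaged, the diet effect on Oat differed by −1.04 ± 0.21 on the log2 scale in PWK/PhJ (adjusted p = 0.00023) and by 0.80 ± 0.22 in 129S1/SvImJ (adjusted p = 0.015). Such differences were called for 16.3% and 6.28% of all genes in these strains. In CAST/EiJ, where Oat was most abundant, the log2 fold change was 0.04 ± 0.19. Leaving out PWK/PhJ replicate 5 on CD-TN ended the call in PWK/PhJ.

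Lhpp had the largest fall. In PWK/PhJ the mice had 20.9, 22.8 and 29.9 CPM on CD-TN and 9.38, 11.8 and 12.4 CPM on WD-TN, and the groups did not overlap. The log2 fold change was −1.07 ± 0.20 (n = 6 and 7, adjusted p = 2e-05), with −0.91 and −1.22 in the 2 cohorts, and it differed from the other 6 strains by −1.16 ± 0.22 (adjusted p = 7.35e-05). In the other 6 strains the log2 fold changes of Lhpp ran from −0.32 to 0.39 and none passed the test in the common fit. With cohort as a term, Lhpp passed upward in 129S1/SvImJ (0.42, adjusted p = 0.037) and in C57BL/6J (0.44, adjusted p = 0.019). In 129S1/SvImJ it also passed upward with quality weights (0.38, adjusted p = 0.012), upper-quartile factors (0.46, 0.049) and that strain fitted alone (0.39, 0.016). Lhpp and Oat lie close together on chromosome 7 (132610638 to 132706420 on the plus strand and 132557478 to 132576398 on the minus strand) and do not overlap.

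Of the other members that handle glutamine and glutamate, Glul was called in 1 strain and Slc1a2 in 2. Glul was called in CAST/EiJ, from 399.6, 619 and 782 CPM on CD-TN to 666, 862 and 970 CPM on WD-TN, with 5 of 8 WD-TN mice above all CD-TN mice (log2 fold change 0.52 ± 0.19, adjusted p = 0.040). That call was lost when any 1 of 8 of the 15 CAST/EiJ mice was left out, with adjusted p up to 0.26 over the alternatives, and with cohort as a term (adjusted p = 0.058). In 129S1/SvImJ the log2 fold change of Glul was −0.01 ± 0.21. The exons of Glul share 116 of 3323 bases with Teddm2 on the opposite strand and 93 with Mir8114, so reads there could belong to either gene. Slc1a2 was upregulated in DBA/2J, from 46.4, 55.6 and 85.5 to 75.4, 96.7 and 113.5 CPM, with 5 of 7 WD-TN mice above all CD-TN mice (log2 fold change 0.68 ± 0.20, adjusted p = 0.011). It was also upregulated in 129S1/SvImJ, from 30.4, 38.1 and 55.0 to 53.8, 57.03 and 85.8 CPM, with overlap (log2 fold change 0.61 ± 0.20, adjusted p = 0.016), where leaving out WD-TN replicate 6 ended the call.

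The cytochrome P450 genes moved apart in C57BL/6J. Cyp2e1 had 1563, 4620 and 7284 CPM on CD-TN and 1936, 7320 and 9294 CPM on WD-TN, with 4 of 8 WD-TN mice above all CD-TN mice (log2 fold change 0.65 ± 0.17, adjusted p = 0.0027). Cyp1a2 had 112, 307 and 414 CPM on CD-TN and 59.3, 215 and 281 CPM on WD-TN, with overlapping ranges (log2 fold change −0.56 ± 0.19, adjusted p = 0.017). Without both mice that stood apart, Cyp2e1 still rose (0.69, adjusted p = 7.56e-06) and Cyp1a2 still fell (−0.51, adjusted p = 0.0065), although leaving out CD-TN replicate 3 or WD-TN replicate 3 alone ended the call for Cyp1a2. With C57BL/6J fitted alone and both mice kept, neither gene passed (adjusted p = 0.23 for Cyp2e1 and 0.25 for Cyp1a2). Within cohorts the difference of Cyp1a2 was −0.60 and −0.24, and with cohort as a term of the fit it did not pass the test (adjusted p = 0.078).

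In PWK/PhJ Cyp1a2 also fell, from 352, 401 and 466.1 CPM to 158, 273 and 494 CPM, with 6 of 7 WD-TN mice below all CD-TN mice and 1 above them (log2 fold change −0.64 ± 0.21, adjusted p = 0.014). Leaving out WD-TN replicate 2 ended that call. Cyp2e1 had a log2 fold change of −0.40 ± 0.19 in PWK/PhJ (adjusted p = 0.11). Against the mean of the other 6 strains, the diet effect of PWK/PhJ differed by −0.70 ± 0.23 for Cyp1a2 (adjusted p = 0.025) and −0.61 ± 0.21 for Cyp2e1 (adjusted p = 0.035), and that of C57BL/6J by 0.61 ± 0.19 for Cyp2e1 (adjusted p = 0.043, where 4.69% of all genes were called). The last value was 0.66 without both C57BL/6J mice (adjusted p = 0.00059), and Cyp1a2 in C57BL/6J then differed too (−0.55, adjusted p = 0.027), where 7.39% of all genes did. In 129S1/SvImJ the Cyp1a2 values did not overlap, with 470 to 670 CPM on CD-TN and 696 to 961 CPM on WD-TN, yet the log2 fold change of 0.43 ± 0.22 did not pass the test (adjusted p = 0.13). It did pass with 129S1/SvImJ fitted alone (adjusted p = 0.0012), with quality weights (0.0070) and with genes of any count (0.025). Under these settings 38.1%, 40.3% and 15.5% of all genes were called in that strain.

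**Figure D2:**
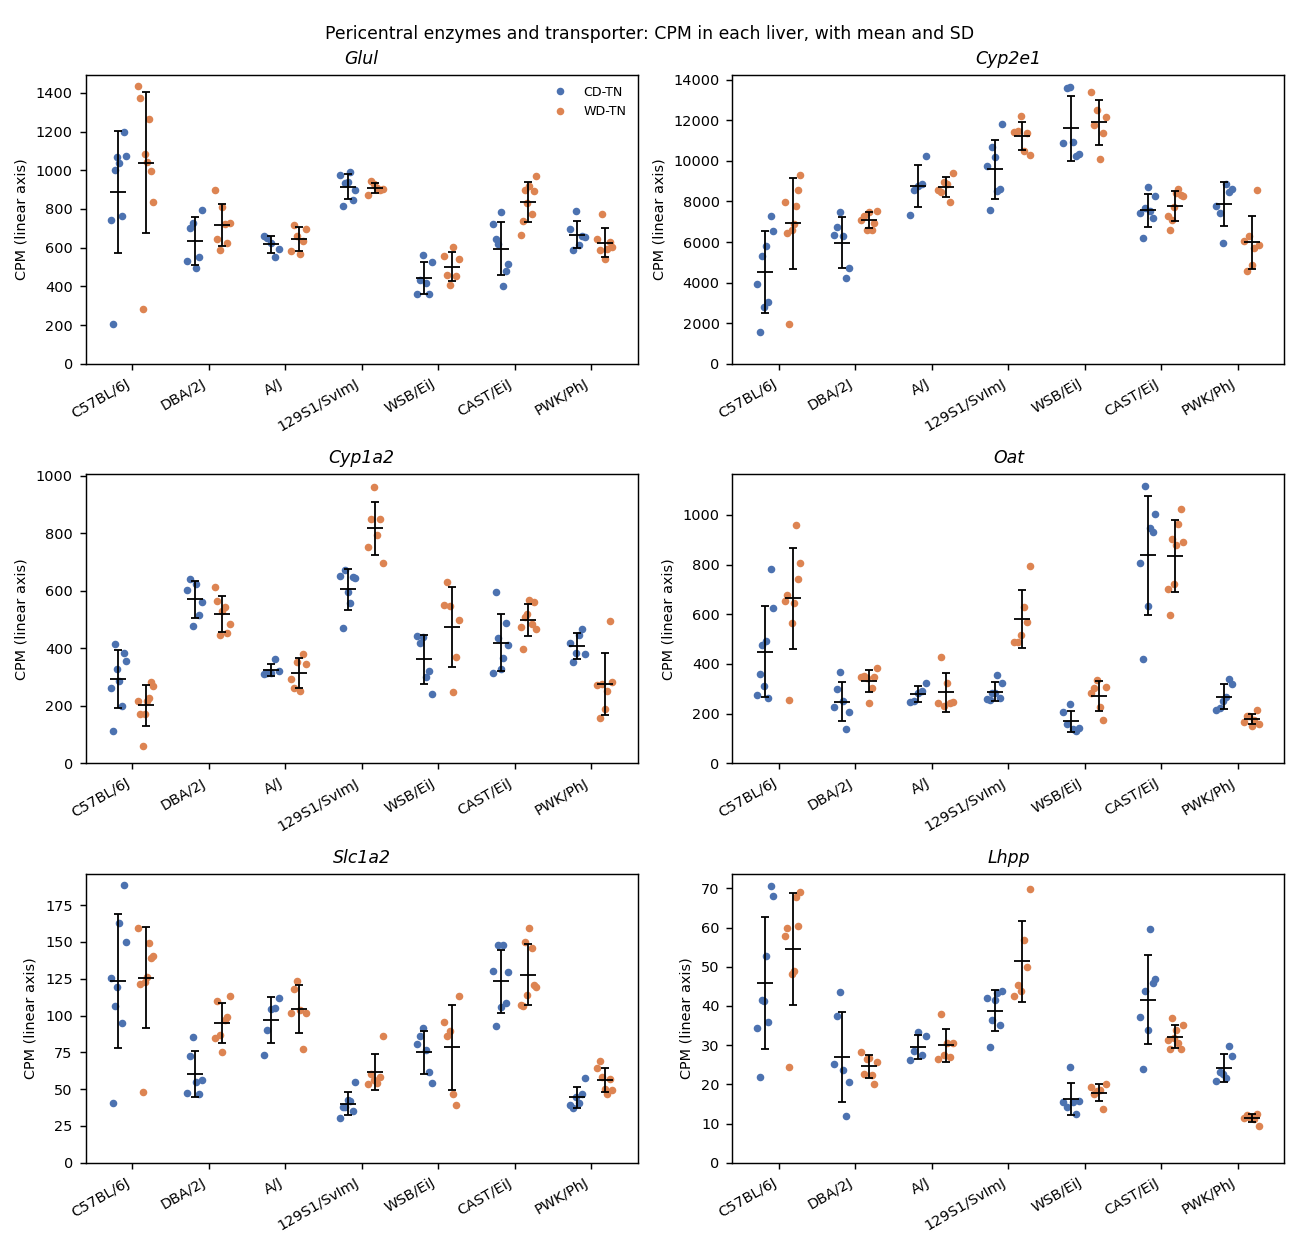
CPM (vertical axis, linear from 0) of Glul, Cyp2e1, Cyp1a2, Oat, Slc1a2 and Lhpp in every mouse (points) of the 7 strains (horizontal axis) on CD-TN (blue) and WD-TN (orange), with group mean and SD in black. The lowest C57BL/6J points of Glul, at 205 and 282 CPM, belong to the mice that stood apart, and the Lhpp points of PWK/PhJ on WD-TN lie at 9.38 to 12.4 CPM, below all PWK/PhJ mice on CD-TN.

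Among the Wnt pathway genes, Axin2 fell in 3 strains. C57BL/6J mice had 7.74, 10.5 and 13.5 CPM on CD-TN and 5.58, 6.37 and 8.18 CPM on WD-TN, and 7 of 8 WD-TN mice were below all CD-TN mice (log2 fold change −0.67 ± 0.16, adjusted p = 0.00072, and −0.63 with adjusted p = 0.0031 without both mice that stood apart). The 5 A/J mice on CD-TN had 10.1, 7.30, 7.23, 8.90 and 13.1 CPM and the 6 on WD-TN had 4.30, 5.42 and 8.01 CPM as lowest, median and highest values, with 5 of 6 below all CD-TN mice (log2 fold change −0.73 ± 0.21, adjusted p = 0.017). Leaving out A/J replicate 5 on CD-TN ended that call. PWK/PhJ mice had 6.65, 10.7 and 14.7 CPM on CD-TN and 5.95, 6.90 and 8.06 CPM on WD-TN, with overlapping ranges (log2 fold change −0.58 ± 0.18, adjusted p = 0.0086). Within cohorts the log2 difference was −0.65 and −0.67 in C57BL/6J. It was −0.80 and −0.47 in A/J. PWK/PhJ had −0.60 and −0.55. Axin2 shares 209 of its 5506 exon bases with the antisense gene Gm11670, Tbx3 shares 115 with Tbx3os1 and Slc1a2 shares 189 with Gm13872, and without a stated strand setting such reads cannot be told apart.

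Tbx3 fell in C57BL/6J, from 23.6, 61.7 and 118.8 CPM to 9.54, 36.5 and 64.997 CPM, with overlapping ranges (log2 fold change −0.84 ± 0.26, adjusted p = 0.012). The log2 difference was −1.07 in cohort 1 and −0.29 in cohort 2. Leaving out WD-TN replicate 3 ended the call (adjusted p = 0.078), while without both mice that stood apart the log2 fold change was −0.77 (adjusted p = 0.012). Averaged over the 7 strains, Axin2 fell by 0.36 ± 0.07 (adjusted p = 2.17e-05) and Tbx3 fell by 0.38 ± 0.11 (adjusted p = 0.0028) on the log2 scale, while Oat rose by 0.31 ± 0.08 (adjusted p = 0.00028) and Slc1a2 by 0.26 ± 0.08 (adjusted p = 0.0024). That is 4 of the 10 genes, where 51.6% of all genes had a mean diet effect. Without both C57BL/6J mice, Glul (0.15, adjusted p = 0.0026) and Cyp2e1 (0.13, adjusted p = 0.026) passed as well, where 53.9% of all genes did. Low Glul was among the reasons for picking those mice.

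In CAST/EiJ, Lgr5 and Rnf43 were called, both upward. Lgr5 rose from 0.439, 1.63 and 9.19 CPM on CD-TN to 2.97, 4.86 and 12.98 CPM on WD-TN, with 2 of 8 WD-TN mice above all CD-TN mice (log2 fold change 1.63 ± 0.36, adjusted p = 0.0005). Rnf43 rose from 5.88, 17.2 and 29.8 CPM to 18.6, 25.8 and 40.3 CPM, also with overlap (log2 fold change 0.88 ± 0.21, adjusted p = 0.0013). The lowest CD-TN values came from replicates 5, 6 and 7 of cohort 4, with 0.620, 0.821 and 0.439 CPM of Lgr5, while replicate 4 of that cohort had 5.52 CPM. Within cohorts 3 and 4 the log2 difference of Lgr5 was 1.34 and 2.22, but in cohort 1, with 1 CD-TN and 3 WD-TN mice, it was −0.59. For Rnf43 these values were 0.43, 1.42 and −0.14. With cohort as a term of the fit both genes passed the test (Lgr5 1.18, adjusted p = 0.016, and Rnf43 0.76, adjusted p = 0.0083), but with CAST/EiJ fitted alone neither did (adjusted p of 0.070 and 0.099).

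For the 4 Wnt pathway genes, the diet effect in CAST/EiJ was above the mean of the other 6 strains, by 1.74 ± 0.39 for Lgr5 (adjusted p = 0.00087), 0.93 ± 0.23 for Rnf43 (adjusted p = 0.0026), 0.98 ± 0.30 for Tbx3 (adjusted p = 0.018) and 0.73 ± 0.20 for Axin2 (adjusted p = 0.0060). In CAST/EiJ 14.5% of all genes differed in this way. All 4 differences passed without both C57BL/6J mice too, from 0.72 to 1.70. Within CAST/EiJ, Axin2 and Tbx3 had log2 fold changes of 0.27 ± 0.18 and 0.46 ± 0.28, which did not pass the test.

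**Figure D3:**
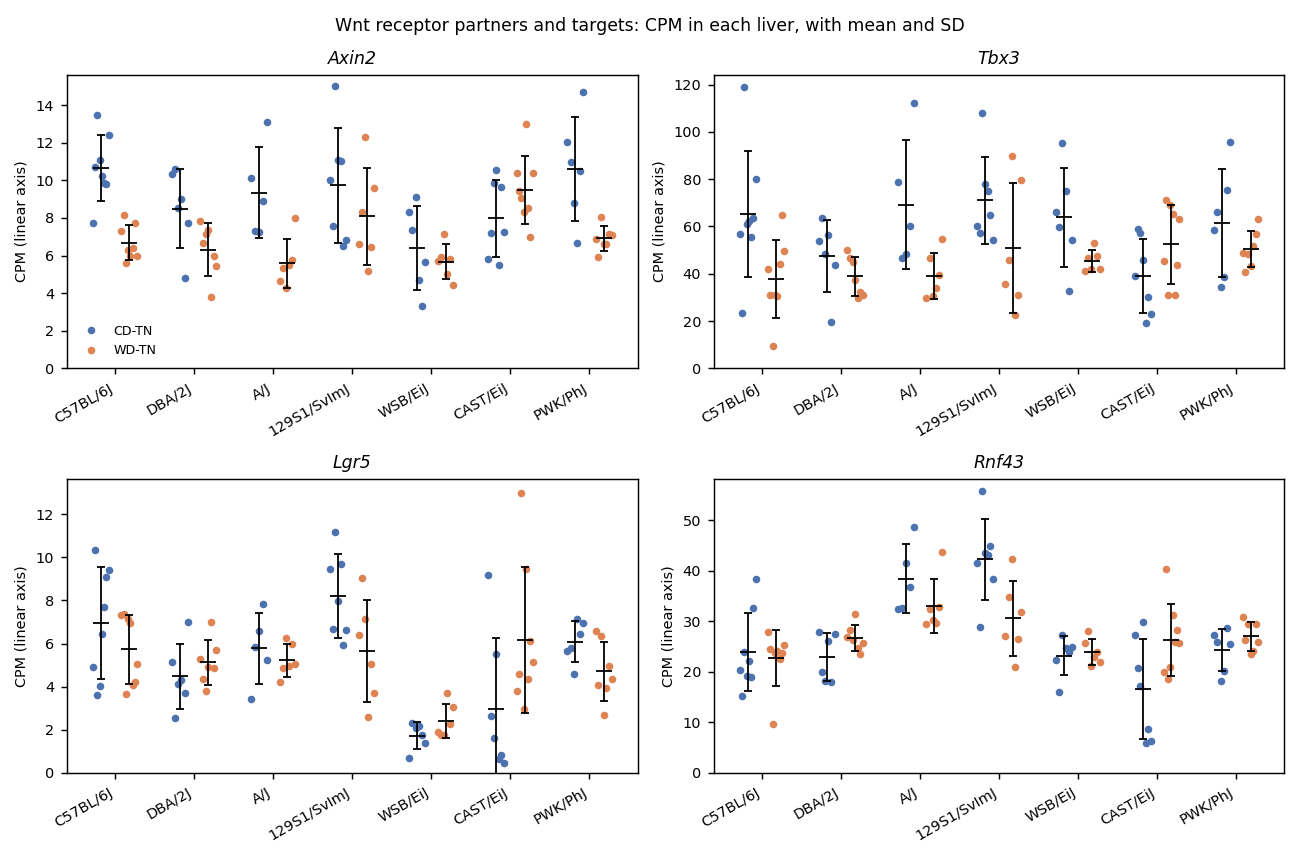
CPM (vertical axis, linear from 0) of Axin2, Tbx3, Lgr5 and Rnf43 in every mouse (points) of the 7 strains (horizontal axis) on CD-TN (blue) and WD-TN (orange), with group mean and SD in black. Axin2 points on WD-TN lie below most CD-TN points of the strains C57BL/6J and A/J, and in CAST/EiJ the lowest Lgr5 and Rnf43 points, down to 0.439 and 5.88 CPM, are CD-TN mice.

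Across the 7 strains, an F test of equal diet effects was passed by 7 of the 10 genes, where 37.5% of all genes passed it. These were Oat (adjusted p = 0.00012), Lhpp (0.00014), Lgr5 (0.00052), Cyp1a2 (0.0036), Rnf43 (0.0044), Axin2 (0.0084) and Cyp2e1 (0.033). The last of these did not pass with genes of any count kept (adjusted p = 0.086). It also failed, with adjusted p up to 0.062, when 1 mouse was left out, namely C57BL/6J replicate 2, 4 or 6 on CD-TN or 1, 6, 7 or 8 on WD-TN, or PWK/PhJ replicate 4 or 5 on CD-TN or 2 or 4 on WD-TN. Glul (adjusted p = 0.51), Slc1a2 (0.15) and Tbx3 (0.064) did not pass. Without both C57BL/6J mice that stood apart, all 10 genes passed, where 43.5% of all genes did, with adjusted p of 0.029 for Glul, 0.021 for Slc1a2 and 0.026 for Tbx3. Both mice were picked in part by their low Glul, and replicate 3 on WD-TN was also the lowest of its group for Slc1a2. The passes gained this way are therefore no independent support.

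The diet effects on the 10 genes were set beside lists of related genes, described by counts over the 7 strains. Of the 17 further pericentral genes, 31 of 119 comparisons between diets were upregulated and 0 downregulated (26.1% upregulated, where 10.5% of all comparisons were upregulated and 9.44% downregulated). Their median log2 fold change was positive in 6 strains, up to 0.49 in WSB/EiJ, and −0.06 in PWK/PhJ, the strain in which 4 members fell. Lect2, a secreted hepatokine, rose in 5 strains, by up to 0.72. Rhbg, an ammonium transporter, rose in 4, by up to 1.48. When both mice that stood apart were left out, C57BL/6J had 6 upregulated and 1 downregulated instead of 4 and 0, where 29.2% of all genes were called.

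Periportal genes were called downregulated more often than upregulated, and most comparisons passed in neither direction. Of 105 comparisons over 15 genes, 36 (34.3%) were downregulated and 6 (5.71%) upregulated, where 9.44% and 10.5% of all comparisons were. List medians were −0.59 in 129S1/SvImJ, −0.58 in PWK/PhJ and 0.06 in WSB/EiJ. Arg1, the last enzyme of the urea cycle, fell in 5 strains, by up to 0.70 on the log2 scale in 129S1/SvImJ. Hal, which degrades histidine, fell in 4, and Cdh1 (E-cadherin) fell in 3 and rose in PWK/PhJ. Of 9 genes chosen to mark hepatocytes as such, 26 of 63 comparisons (41.3%) were downregulated and 0 upregulated, and Alb and Apoa1 fell in 6 strains each. Cyp2f2, a periportal cytochrome P450, was called in DBA/2J (log2 fold change −0.59, adjusted p = 0.011).

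In the Wnt pathway, ligands and R-spondins changed in 3 of 42 comparisons (2.38% up and 4.76% down). Of all comparisons of all genes, 10.5% were up and 9.44% down. Rspo3, the R-spondin named above, fell in C57BL/6J (−0.32, adjusted p = 0.0027), Wnt2 fell in A/J (−0.50) and Wnt5a rose in PWK/PhJ (0.91). Receptors and co-receptors had 5 of 70 comparisons up (7.14%) and 10 down (14.3%). The receptor Fzd4 was up in 4 strains and the co-receptors Lrp5 and Ryk were down in 4 each. In the β-catenin complex and its transcription factors, 23 of 91 comparisons (25.3%) were downregulated and 4 (4.40%) upregulated. Axin1 and Tcf7l1 fell in 5 strains each, and Tcf7 in 3. Of the feedback inhibitors and other targets, 12 of 63 comparisons (19.0%) were down and 5 (7.94%) up. Among them Notum, a secreted enzyme that inactivates Wnt ligands, fell in C57BL/6J (−0.90), DBA/2J (−1.21), 129S1/SvImJ (−0.43) and PWK/PhJ (−0.67) and rose in CAST/EiJ (0.70, adjusted p = 0.00015). Znrf3, a ubiquitin ligase related to Rnf43, fell in 4 strains, by up to 0.43. Ccnd1, a cyclin, rose in 2 strains and fell in C57BL/6J.

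The 12 other genes of glutamine, glutamate and ornithine metabolism had 10 of 84 comparisons up (11.9%) and 13 down (15.5%). Over all genes these shares were 10.5% and 9.44%. The periportal glutaminase Gls2 fell in 4 strains, by up to 0.81 in PWK/PhJ, the amino acid transporter Slc38a2 fell in 3, and Glud1 (glutamate dehydrogenase) fell in 3 and rose in DBA/2J. Of the aryl hydrocarbon receptor pathway, 7 of 63 comparisons were up (11.1%) and 5 down (7.94%), near the shares of all genes. Nqo1 was up in 3 strains, Tiparp down in 3 and Cyp1b1 up in 2. In the strains where Cyp1a2 fell, C57BL/6J had 0 of these 9 genes called and PWK/PhJ 1 up and 2 down. Of all genes, 26.2% and 29.6% were called in these strains. Cyp1b1 rose in C57BL/6J when both mice that stood apart were left out (0.56, adjusted p = 0.014). In the same fit, the counts of upregulated and downregulated genes in C57BL/6J went from 2 and 7 to 1 and 7 for periportal genes, from 1 and 2 to 4 and 2 for glutamine, glutamate and ornithine metabolism, from 0 and 1 to 1 and 2 for Wnt ligands and R-spondins, from 0 and 4 to 1 and 4 for feedback inhibitors and other targets, and from 0 and 3 to 1 and 3 for hepatocyte markers. Rspo3 (−0.32, adjusted p = 0.0054), Notum (−0.99, adjusted p = 1.06e-08) and Ccnd1 (−1.32, adjusted p = 7.09e-06) still fell there. In that fit 29.2% of all genes were called in C57BL/6J.

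**Figure D4:**
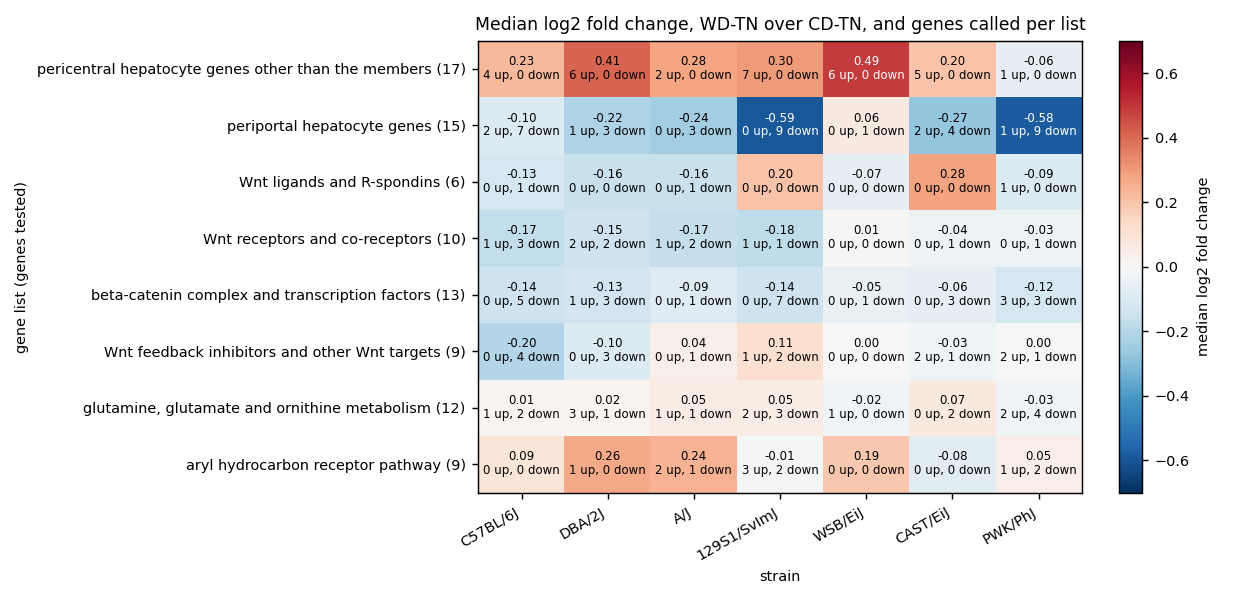
Median log2 fold change of WD-TN over CD-TN (color and upper number) and number of genes called in each direction (lower line) for 8 gene lists (rows, with the genes tested) in the 7 strains (columns). With all mice, pericentral genes other than the members had no downregulated gene in any strain, and periportal genes had 9 downregulated in 129S1/SvImJ and in PWK/PhJ.

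Markers of other cells moved with diet too. Leukocyte markers had 21 of 42 comparisons up and 0 down (Cd52 in 5 strains, Ptprc in 4, Itgb2 in 3), and those of stellate cells and fibroblasts 12 of 49 up and 0 down (Col3a1 in 4, Col1a1 and Pdgfrb in 3). Bile duct markers had 7 of 35 up (20.0%) and 1 down (2.86%), with Spp1 up in 4 strains. Kupffer cell markers had 5 of 35 up (14.3%) and 0 down, with Cd5l up in 4. Sinusoidal endothelial markers had 5 of 42 up (11.9%) and 6 down (14.3%), and central vein endothelial markers 3 of 42 up (7.14%) and 2 down (4.76%). In PWK/PhJ, where 4 members fell, the summed stellate and fibroblast markers were 136 to 219 CPM on CD-TN and 297 to 606 CPM on WD-TN, and the summed bile duct markers 64.5 to 140.3 and 159 to 525 CPM, and the summed leukocyte markers 17.7 to 57.1 and 58.4 to 93.003 CPM, each without overlap. In CAST/EiJ, where 3 members rose, the summed stellate and fibroblast markers overlapped (283 to 364 and 284 to 480 CPM), while the summed bile duct markers did not (22.5 to 34.3 and 34.6 to 62.3 CPM). In 129S1/SvImJ, where Oat and Slc1a2 rose, the summed leukocyte markers were 28.0 to 46.7 and 81.4 to 122 CPM, those of stellate cells and fibroblasts 292 to 341 and 354 to 441 CPM, and those of bile ducts 21.3 to 43.1 and 59.7 to 102 CPM, again without overlap. Bile duct markers did not overlap in WSB/EiJ either (17.2 to 26.7 and 27.7 to 32.2 CPM). Of the 5 bile duct markers taken singly, 4 were called up in PWK/PhJ, 1 in CAST/EiJ, 1 in 129S1/SvImJ and 0 in WSB/EiJ. Over all genes, the diet groups did not overlap for 12.6% in PWK/PhJ, 2.23% in CAST/EiJ, 16.4% in 129S1/SvImJ and 4.36% in WSB/EiJ. In C57BL/6J the summed leukocyte markers overlapped (57.2 to 153 and 124 to 210 CPM), but not without both mice that stood apart (57.2 to 116 and 124 to 210 CPM). The summed central vein endothelial markers overlapped in every strain. The part of these cells in the changes of the 10 genes was not tested.

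Mice of the same strain and diet also differed from each other, and several of the 10 genes varied together. Correlations were computed over the deviations of log2 CPM from the group means in 93 mice, for 65 pairs (the 45 pairs of members, and each member with Rspo3 and with Cyp2f2). Of these, 40 had an adjusted p below 0.05 for Pearson's r by permutation within groups, all positive, and 31 did when cohort means were removed too. Both Pearson's r and Spearman's rho passed for 29 pairs. No such share was computed for pairs of other genes, so whether 40 of 65 is more than such pairs give was not tested. Without both C57BL/6J mice that stood apart, 21 pairs remained below 0.05. All values of a mouse come from 1 library and share its composition.

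Oat and Lhpp were the closest pair (Pearson r = 0.81, Spearman rho = 0.76, both with a permutation p of 1e-05, the smallest that 100000 draws can give, and adjusted p of 5.91e-05 and 8.12e-05). The value was 0.81 within cohorts and 0.81 without both C57BL/6J mice, and 0.76 without the 2 mice farthest from the median of Oat. Slc1a2 varied with Oat (r = 0.70, rho = 0.71) and with Lhpp (r = 0.71, rho = 0.59), each at the smallest permutation p, and kept r = 0.70 and 0.58 without both C57BL/6J mice. Cyp2e1 and Cyp1a2 had r = 0.74 and rho = 0.55, also at the smallest permutation p, r = 0.55 without the 2 mice farthest from the median of Cyp2e1, and r = 0.51 without both C57BL/6J mice.

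Axin2, Tbx3 and Rnf43 formed another run of pairs. Axin2 and Tbx3 had r = 0.65 and rho = 0.66, and Rnf43 and Tbx3 r = 0.64 and rho = 0.60, each with a permutation p of 1e-05 and an adjusted p of 5.91e-05 for r. Without both C57BL/6J mice these were 0.72 and 0.56, and within cohorts 0.67 and 0.69. Lgr5 varied with Rnf43 (r = 0.60, adjusted permutation p = 0.0006, rho = 0.45, adjusted permutation p = 0.00084), but no relation between Lgr5 and Axin2 passed the test (r = 0.05, adjusted permutation p = 0.74). Without both C57BL/6J mice the r of Lgr5 and Rnf43 was 0.64 (adjusted permutation p = 0.00077).

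Glul depended on the mice that stood apart. Glul and Cyp2e1 had r = 0.67 (adjusted permutation p = 0.0047) and rho = 0.31 (adjusted permutation p = 0.022), yet r was 0.29 without the 2 mice farthest from the median of Glul and 0.17 without both C57BL/6J mice (adjusted permutation p = 0.355), so the relation rests on those mice. Glul with Lgr5 went the other way, from r = 0.25 (adjusted permutation p = 0.035) to r = 0.48 without both mice (adjusted permutation p = 0.00077), while over all mice it did not pass with cohort means removed (r = 0.24, adjusted permutation p = 0.15) or with RIN, the RNA integrity number, regressed out (adjusted permutation p = 0.052). Rspo3, the R-spondin of the central vein, varied with Lgr5 (r = 0.35, adjusted permutation p = 0.0086, rho = 0.30, adjusted permutation p = 0.017), Glul (r = 0.26, adjusted permutation p = 0.0064, rho = 0.35, adjusted permutation p = 0.0041) and Rnf43 (r = 0.31, adjusted permutation p = 0.022, rho = 0.20, adjusted permutation p = 0.13). The relation with Rnf43 did not pass with cohort means removed (r = 0.24, adjusted permutation p = 0.19) or without both C57BL/6J mice (adjusted permutation p = 0.051). Without both mice the r of Rspo3 was 0.36 with Lgr5 (adjusted permutation p = 0.013) and 0.38 with Glul (adjusted permutation p = 0.0050). Cyp2f2 had its highest value with Cyp1a2 (r = 0.60, adjusted permutation p = 5.91e-05, rho = 0.28, adjusted permutation p = 0.039). Without both C57BL/6J mice this pair had r = 0.48 (adjusted permutation p = 0.0063) and rho = 0.15. Over all mice the r of Cyp2f2 also passed with Cyp2e1 (0.43, adjusted permutation p = 0.0092), Slc1a2 (0.38, 0.033) and Tbx3 (0.29, 0.013). Without both C57BL/6J mice the values for Cyp2e1, Slc1a2 and Tbx3 were 0.11, 0.05 and 0.08, and none passed.

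**Figure D5:**
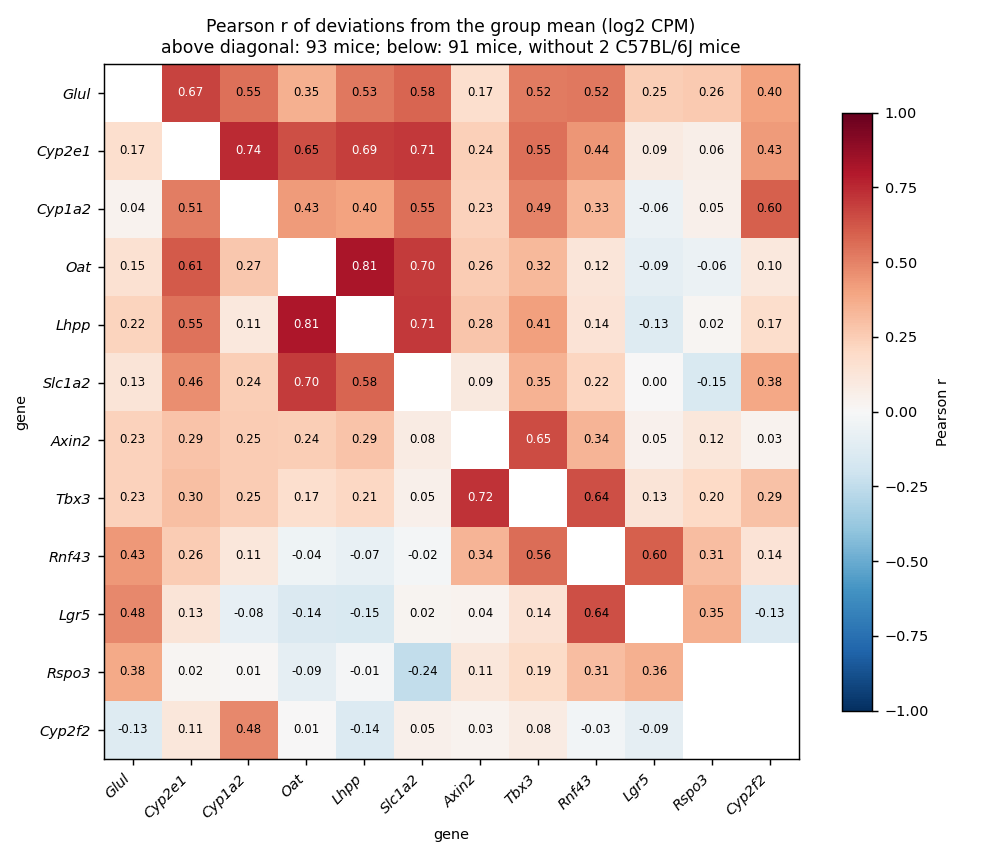
Pearson r (color and number) between deviations of log2 CPM from the group mean for pairs of the 10 genes, Rspo3 and Cyp2f2 (both axes), over 93 mice above the diagonal and without 2 C57BL/6J mice below it. Oat and Lhpp keep 0.81 on both sides, while Glul and Cyp2e1 go from 0.67 to 0.17.

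Over the whole table, the genes closest to each member among mice of one group were named as a description. For Glul these included Glns-ps1 (r = 0.82) and Csrp3 (0.78), of which Glns-ps1 is a glutamine synthetase pseudogene whose reads may be hard to tell from those of Glul. Cyp2e1 was closest to Sult2a8 (0.87), Cyp2c54 (0.84) and Cyp2c50 (0.83), and Cyp1a2 to Ces2a (0.76), Susd4 (0.76) and Aldh2 (0.75). Oat was closest to the aspartate-glutamate carrier Slc25a13 (0.74), Cmbl (0.70) and Ahcy (0.68), and Slc1a2 to Smarca2 (0.71), Mia2 (0.69) and the same Slc25a13 (0.68). Lhpp was closest to Plpp3 (0.78), Akap1 (0.76) and Cpt1a (0.76). Sp5, a transcription factor induced by β-catenin, was the closest gene to both Axin2 (0.54) and Tbx3 (0.67). Epha2 (0.48) was also among the genes closest to Axin2, and Fbxo9 (0.64) and Dbr1 (0.62) followed for Tbx3. Lgr5 was closest to Pacsin2, Gpsm2 and Kalrn (each 0.73) and Rnf43 to Gm12247 (0.78), 1110032A03Rik (0.75) and Prkd3 (0.73).

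Over the 14 group means, which differ mainly by strain, other genes were closest, with r from 0.84 to 0.94. The highest were Chil3 with Oat (0.94), Tmem242 with Cyp2e1 (0.93), Rufy1 with Lgr5 (0.91), Chsy3 with Tbx3 (0.91), Gm13071 with Slc1a2 (0.90), Dcaf15 with Cyp1a2 (0.89), Peli2 with Rnf43 (0.89), Fermt1 with Glul (0.89), Gm3086 with Lhpp (0.88) and Taf15 with Axin2 (0.86).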

How the data were processed

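Liver mRNA of 93 male mice was sequenced from SMARTER libraries on a BGISEQ-500. The authors mapped reads to GRCm38 with STAR (version 2.7.1a in the submitters' processing notes) and deposited 1 table of its raw counts per gene. The strand setting and the annotation release are not given in the sources used here. Each library held 40020424 to 49894856 reads on genes (median 46618609), and 4 lines that name no gene, left out here, took 19.9% to 34.7% of a mouse's reads.

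Models were fitted with limma 3.58.1, after TMM scaling by edgeR 4.0.16 (R 4.3.3). Genes passing filterByExpr at a minimum count of 10 (19110 of 53465) entered 1 limma-voom fit, with 1 mean for each of 14 groups. P-values were two-sided and Benjamini-Hochberg adjusted over all genes tested within each comparison, with a threshold of 0.05, and n in each comparison is the number of mice. Log2 CPM used a prior count of 2. Correlations used deviations from group means, 100000 permutations within groups and adjustment over 65 pairs. Gene positions, exon lengths and overlaps came from the GENCODE annotation of GRCm38.

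Alternatives were the edgeR quasi-likelihood test, DESeq2 1.42.0, upper-quartile factors, other count filters, cohort or RIN as a term, separate fits, quality weights and leaving out mice. Leaving out mice of groups other than A/J on CD-TN, and both C57BL/6J mice together, was chosen after seeing the data. The fits were tested on simulated counts. Members and lists were chosen with earlier results of these data known. All 10 members are named, and from each list the up to 3 genes called in most strains, with ties settled by the largest log2 fold change; for each member the 3 genes with the highest Pearson r. Some genes that this rule names are not reported here. Tf was not matched by symbol, and Wnt11 did not pass the filter.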

Additional observations from a re-analysis of the deposited data

Results flagged for a closer look

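Of 140 groups of 5 to 8 mice (10 genes in 14 groups), 13 had a mouse beyond Dixon's 95% limit, 5 of them in C57BL/6J, where chance alone gives about 5%. In C57BL/6J, replicate 2 on CD-TN was low for Glul (205 CPM), and replicate 3 on WD-TN was low for Cyp2e1 (1936 CPM), Lhpp (24.5 CPM), Rnf43 (9.66 CPM) and Slc1a2 (48.0 CPM). In PWK/PhJ on WD-TN, replicate 6 was high for Cyp1a2 (494 CPM) and Cyp2e1 (8581 CPM), and replicate 7 was low for Lhpp (9.38 CPM). In A/J, replicate 4 on CD-TN was high for Cyp1a2 (363 CPM), and on WD-TN replicate 2 was high for Lhpp (37.8 CPM) and replicate 6 for Rnf43 (43.7 CPM). Replicate 3 of WSB/EiJ on CD-TN was high for Lhpp (24.4 CPM), and replicate 6 of 129S1/SvImJ on WD-TN was high for Slc1a2 (85.8 CPM).

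The effect of diet differed between the strains by limma's F test for Axin2 (adjusted p = 0.0084), Cyp1a2 (0.0036), Cyp2e1 (0.033), Lgr5 (0.00052), Lhpp (0.00014), Oat (0.00012) and Rnf43 (0.0044). Against the mean of the other 6 strains, the log2 diet effect differed in 129S1/SvImJ by 0.80 for Oat and in C57BL/6J by 0.61 for Cyp2e1. In CAST/EiJ it differed by 0.73 for Axin2, 1.74 for Lgr5, 0.93 for Rnf43 and 0.98 for Tbx3. In PWK/PhJ it differed by −0.70 for Cyp1a2, −0.61 for Cyp2e1, −1.16 for Lhpp and −1.04 for Oat.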

How the results depend on the processing

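All 17 calls kept their direction under the 9 alternatives to the test, filter, normalization and covariates. They all stayed past the threshold with edgeR, DESeq2, upper-quartile factors, at least 10 counts in every mouse and quality weights, while 15 did with cohort as a block, 16 with RIN, 11 with genes of any count and 11 with separate fits. The number of members called moved with separate fits to 1 in C57BL/6J (13.5% of all genes called under that setting), 2 in A/J (2490 of 19110 genes), 6 in 129S1/SvImJ (38.1%), 1 in CAST/EiJ (10.3%) and 6 in PWK/PhJ (31.8%), with genes of any count to 0 in WSB/EiJ (3.05%) and 0 in DBA/2J (8.15%), and with quality weights to 7 in 129S1/SvImJ (40.3%), 2 in DBA/2J (22.6%) and 2 in A/J (20.6%). Genes of any count ended the calls of Oat in WSB/EiJ and PWK/PhJ, Slc1a2 in DBA/2J and 129S1/SvImJ, Cyp1a2 in C57BL/6J and Glul in CAST/EiJ. The cause was not tested. Correlated pairs went from 40 to 21 without both C57BL/6J mice.

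Leaving out each mouse in turn gave 3 to 4 members called in PWK/PhJ, 4 to 5 in C57BL/6J, 0 to 1 in A/J, 2 to 4 in 129S1/SvImJ, 2 to 3 in CAST/EiJ, 1 to 2 in DBA/2J and 1 to 1 in WSB/EiJ. It gave 6 to 8 for the F test of diet effects, 9 to 10 and 7 to 9 for strain on CD-TN and WD-TN, and 4 to 6 for the mean diet effect. The count was 2 in DBA/2J without replicate 3 or 5 on CD-TN, 0 in A/J without replicate 5 on CD-TN and 4 in 129S1/SvImJ without replicate 3 on WD-TN. No paired analysis was possible because the labels give mice no number shared between diets. Depth limits Lgr5 most.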
